A study of Gallus gallus with 16 samples.

Results

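Of the 24881 genes in the deposited table, 1233 lie on chromosome Z, and 739 of these had at least 10 counts in at least 2 of the 16 libraries. These 739 genes are described here, by place along the chromosome and by sorted population and stage, against genes of the numbered chromosomes (autosomes). RNA had been sequenced from cells sorted by fluorescence from the dissociated vagal region of wild-type chicken embryos, all of which had received the NC2:citrine and E2:citrine enhancer reporters by electroporation. DP cells were sorted as positive for both NC2 and E2, E2 cells as positive for E2 and not NC2, and negative cells as positive for neither, and each group had 2 libraries. The 8 groups were E2 and negative cells at Hamburger-Hamilton stage HH10, and DP, E2 and negative cells at HH18 and at HH25. The sample records name the earliest stage HH10, whereas the series text and the count table name it HH12. HH10 embryos were electroporated at HH4 and the later ones at HH8 or HH9, so between HH10 and the later stages, stage and electroporation time cannot be told apart. A reporter marks the cells that took up the construct and in which the enhancer is active, and the negative cells are whatever else the vagal region held. The labels give no sex, no number of embryos per library and no statement that the 2 libraries of a group come from different embryos, so the p-values reflect only how far these libraries lie apart, a spread that may be technical.

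As background, female birds carry 1 Z and 1 W chromosome and male birds carry a pair of Z chromosomes, the reverse of the arrangement in mammals. Birds lack a chromosome-wide mechanism that fully equalises the Z between the sexes, so many Z genes are known to be expressed at a higher level in males, and W genes are expressed in females. A library made from several embryos therefore reads W genes and Z genes in a proportion that depends, among other things, on how many of its cells came from each sex. The genes carry Ensembl identifiers that neither the files nor the reference table pairs with a name, so the labelled cell types could not be checked against marker genes and no gene is given a role. The positions below are those of the count table on the galGal5 build.

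Total counts ranged from 4032540 to 45313160 per library, and between 545 and 707 of the 739 genes were detected in a library. In 437 genes a count was found in all 16 libraries. A lower share of the chromosome Z genes passed the count rule (59.9%) than of the 17717 autosomal genes (79.8%), and of the 141 chromosome W genes only 23 passed. Of the 494 Z genes that did not pass, 322 had no count in any library. The genes closest to the rule were alike in level, with a mean of 0.119 to 0.287 counts per 1000000 counts (CPM) in the 6 whose second-highest count was 10 and 0.119 to 0.302 CPM in the 5 whose second-highest count was 9. The 739 genes were divided almost evenly between the strands (359 on the plus and 380 on the minus strand), had a median genomic span of 18.8 kb against 11.3 kb for autosomal genes past the same rule, and a median level of 8.20 reads per kilobase and 1000000 reads (RPKM) against 7.80 RPKM. Of the 739, 127 overlap another Z gene, 66 of them a gene on the opposite strand, and the strand setting of the counting is not given in the sources used here, so counts of these genes may be shared.

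Expressed genes were spread unevenly along the chromosome. In bins of 5 Mb, the share of Z genes past the count rule was highest between 20 and 25 Mb, at 75 of 79 genes (94.9%), and lowest between 75 and 80 Mb, at 9 of 129 genes (6.98%), which was also the bin with the most annotated genes. The bins on either side of it held 42 of 107 genes (70 to 75 Mb) and 20 of 57 genes (80 to 85 Mb), whereas the first 12 bins, up to 60 Mb, held between 57.9% and 94.9%. The longest stretch without a passing gene ran from 73559580 to 78512345 and contained 159 consecutive genes. Over all 16 libraries these 159 genes had 100 counts in total, and 135 of them had none. The genes of the 75 to 80 Mb bin that did not pass had a median summed exon length of 496 bp, against 1715 bp for the 9 that did. This is no trait of that bin, because genes that did not pass were shorter in median in every other bin too. The values were 374 against 1625.5 bp at 0 to 5 Mb and 507 against 1762.5 bp at 70 to 75 Mb. As background, a tandem array of testis-expressed gene copies is known near the distal end of the long arm of chicken Z. Whether the genes from 73559580 to 78512345 belong to it could not be examined, and reads of near-identical copies may be lost in counting. At the far end, from 80 to 85 Mb, the 20 genes that passed had a median of 34.8 RPKM, against 4.84 to 11.8 RPKM in the other bins.

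**Figure D1:**
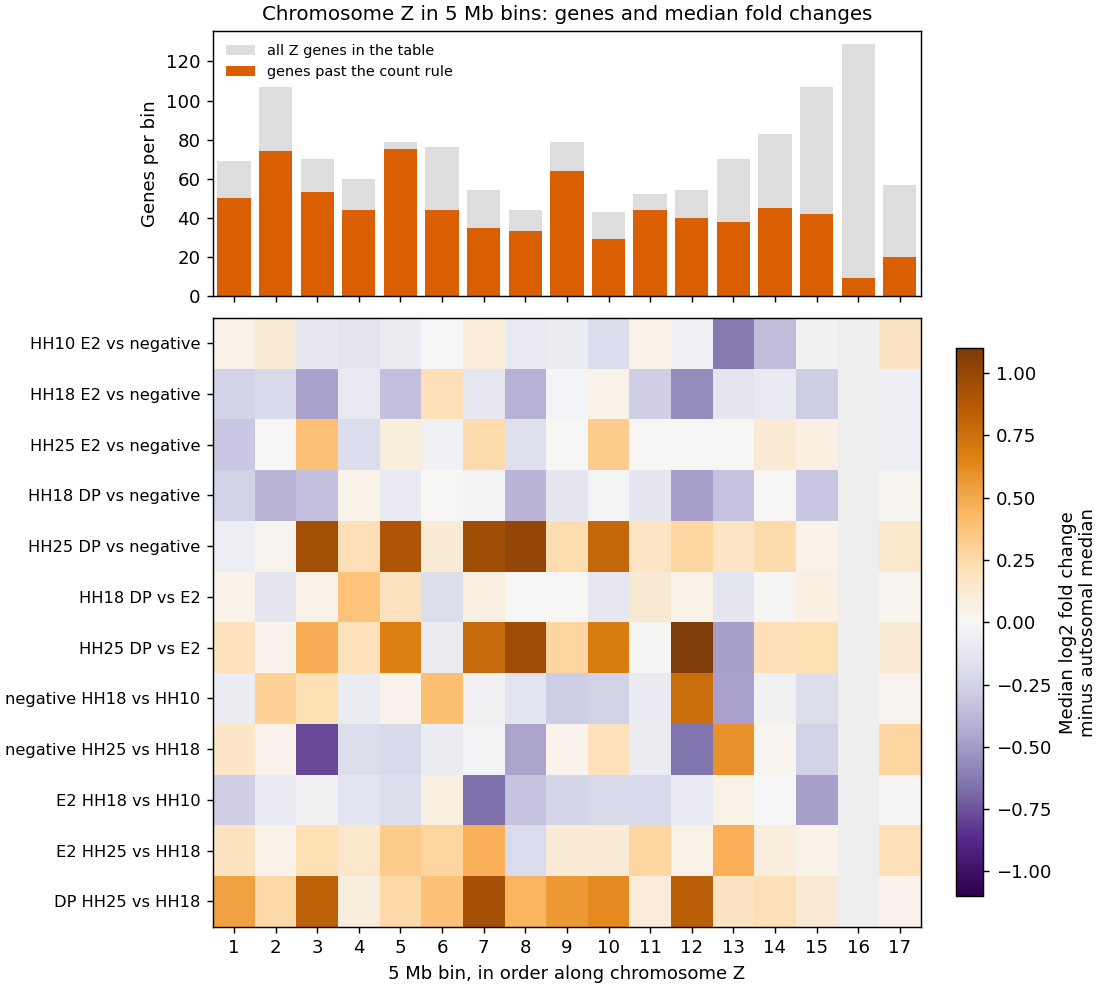
Top, number of chromosome Z genes in the table (grey) and past the count rule (orange) in each of 17 bins of 5 Mb in order along the chromosome. Bottom, median log2 fold change of the tested genes of each bin minus the median of all autosomal genes, for 12 comparisons, with bin 16 left blank because it had 9 tested genes. Bin 16 holds 129 genes of which 9 passed, and all 16 coloured bins are above 0 in the DP HH25 vs HH18 row.

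To place the chromosome as a whole, each library was given a share, a count and a level. The share of all counts on Z and the counts on W came straight from the totals, and the chromosome Z level was the median over the tested Z genes of log2 CPM minus the mean of the gene over the 16 libraries, less the same median over autosomal genes. Any scaling applied to a whole library cancels in this level.

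The HH25 DP libraries stood apart on chromosome Z. Their Z level was 0.24 and 0.31, against -0.22 to 0.08 in the other 14 libraries, which did not reach it. Their share of counts on Z was 4.94% and 5.27%, against 4.01% to 4.91% elsewhere, with a counting interval (Wilson, 95%) of at most 0.0203 percentage points to either side in any library. The ratio of the median RPKM of Z genes to that of autosomal genes was 1.15 and 1.32 in the HH25 DP libraries and 0.848 to 1.12 in the other 14. The same libraries were low on chromosome W, with 37.3 and 75.2 CPM on W genes (per 1000000 counts of the library, unscaled), against 190 to 588 CPM in the other 14. The sex of the embryos behind each library is not given, and its part in the Z values was not tested. In bulk samples, fewer cells of a kind and less RNA per cell cannot be told apart.

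The other groups were ordered by Z level as follows. HH10 negative cells had 0.06 ± 0.02, HH18 negative cells 0.05 ± 0.05, HH25 E2 cells 0.00 ± 0.07, HH10 E2 cells -0.03 ± 0.07, HH25 negative cells -0.08 ± 0.03, HH18 DP cells -0.11 ± 0.16 and HH18 E2 cells -0.18 ± 0.02 (SD, n = 2 each). The libraries of each group overlapped in range with those of the next group in this order. HH25 DP cells, at 0.28 ± 0.05, came before all of them, and neither of their libraries overlapped another group. The HH18 DP libraries differed most between replicates, at -0.22 and 0.00.

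**Figure D2:**
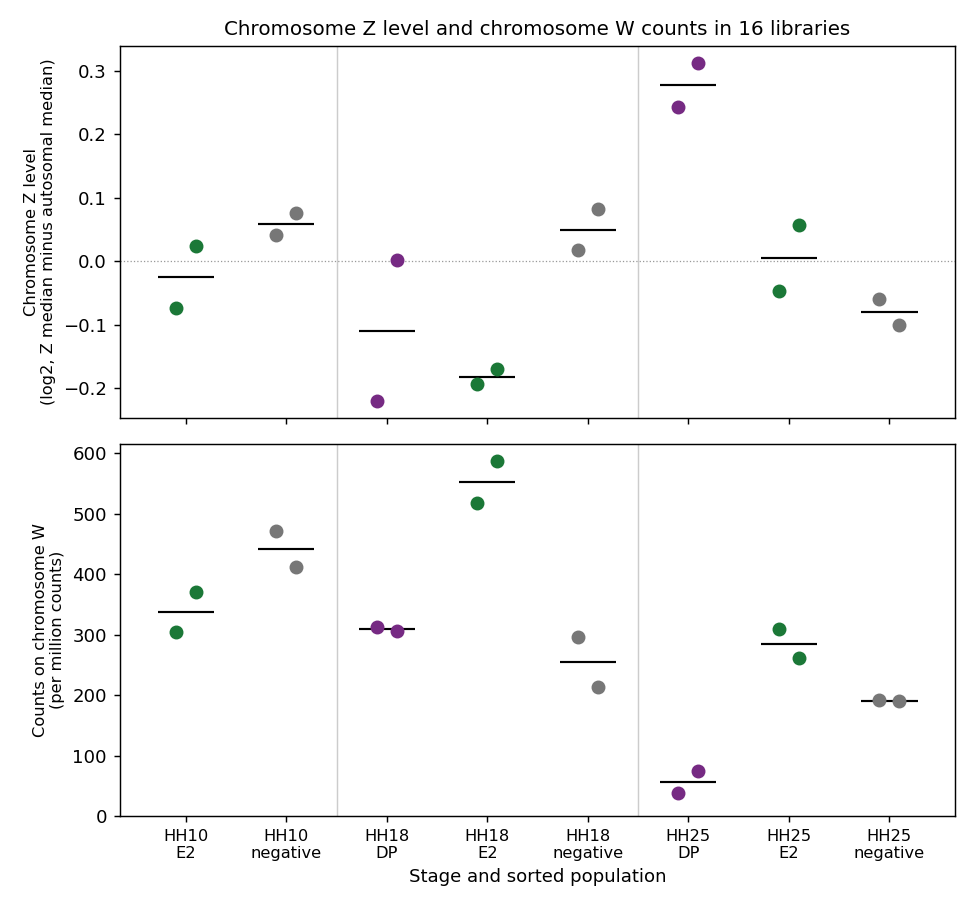
Chromosome Z level (top, log2) and CPM on chromosome W (bottom) in each of the 16 libraries, by stage and sorted population; bars mark the mean of 2 libraries. The HH25 DP libraries are the highest in the top panel and the lowest in the bottom panel.

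None of 5 planned comparisons of the Z level passed its test once all stages or populations were used (exact permutation test over libraries, two-sided, labels permuted within stage or population, Benjamini-Hochberg over the 5). E2 cells differed from negative cells by -0.077 (exact permutation p = 0.176, adjusted p = 0.22, n = 6 each, higher in 1 of 3 stages). DP cells differed from negative cells by 0.099 (exact permutation p = 0.444, adjusted p = 0.444, n = 4 each, higher in 1 of 2 stages) and from E2 cells by 0.17 (p = 0.167, adjusted p = 0.22, exact test, n = 4 each, higher in both stages). HH18 differed from HH10 by -0.083 (p = 0.167, adjusted p = 0.22, exact test, n = 4 each), and HH25 from HH18 by 0.15 (p = 0.13, adjusted p = 0.22, exact test, n = 6 each). The smallest p that these designs allow is 0.0556 with 36 arrangements and 0.00926 with 216.

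Across the 16 libraries, the Z level and the log2 W level were inversely related. Pearson's r was -0.71 (permutation p = 0.00254, adjusted p = 0.0102 over 4 relations) and Spearman's rho was -0.45 (permutation p = 0.0797, adjusted p = 0.206). The permutations shuffled libraries freely across groups. The 2 libraries of a group need not be independent, so these p-values may be too small. Without the 2 libraries farthest from the median W level, which were both HH25 DP libraries, r was -0.24 (permutation p = 0.403, adjusted p = 0.403) over 14 libraries and rho was -0.19 (p = 0.523, permutation). The size of r over all 16 libraries therefore depended on the HH25 DP libraries. Within HH18, r was -0.74 and rho -0.77 over 6 libraries (exact permutation p = 0.131 and 0.103, adjusted 0.174 and 0.206). Within HH25, r was -0.81 and rho -0.43 over 6 libraries (exact permutation p = 0.0583 and 0.419, adjusted 0.117 and 0.523). The HH25 values again include the 2 HH25 DP libraries. The HH25 E2 libraries had Z levels of -0.047 and 0.056 with 309 and 261 CPM on W. The HH25 negative libraries were lower on both, at -0.059 and -0.10 with 192 and 190 CPM. HH10 had 4 libraries, too few for a correlation, and there the order was not inverse: the E2 libraries had Z levels of -0.074 and 0.024 with 305 and 370 CPM on W, and the negative libraries 0.042 and 0.076 with 471 and 412 CPM.

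Single genes were tested with edgeR's quasi-likelihood test on the whole table, adjusted by Benjamini-Hochberg over the 14676 genes that passed its filter on low counts, and called at an adjusted p below 0.05. The filter kept 719 of the 739 Z genes together with 9 Z genes outside the count rule, 728 in all. None of those 9 was called in any of the 12 comparisons at that threshold, so every Z gene called below belongs to the 739. Of the 728, 232 were called in at least 1 comparison and 496 in none. The share of all tested genes called in at least 1 comparison was not worked out. The count of 232 therefore cannot be read as a trait of Z. Numbers of Z genes at an unadjusted p below 0.05, called by DESeq2, or called in fits that left out 1 library, are given without the share over all genes. They therefore cannot show whether Z differs from the other chromosomes. Errors of log2 fold changes are standard errors, and CPM of single genes are scaled by TMM factors.

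The largest number of Z genes was called between HH25 DP cells and HH25 negative cells, where 129 were higher and 47 lower in DP cells. These 176 genes were 24.2% of the Z genes tested, against 23.6% of all genes tested. The directions differed: 17.7% of Z genes were called higher against 13.6% of all genes, and 6.46% were called lower against 9.96% of all genes. The median log2 fold change of Z genes was 0.47, against 0.17 for autosomal genes, a difference of 0.31 (1.24-fold). Of 27 autosomes with at least 100 tested genes, only chromosome 6 had a higher median (0.49). Against autosomes 1 to 10 alone the difference was 0.15, and with genes averaging 5 CPM or more it was 0.44. Leaving out HH25 DP replicate 3 gave a difference of 0.14 and 71 called Z genes, leaving out HH25 negative replicate 1 gave 79, and leaving out HH25 DP replicate 2 gave 112 (replicates numbered as in the count table).

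HH25 DP cells against HH25 E2 cells, which share the DP libraries with the comparison above, gave 44 called Z genes, 36 higher and 8 lower in DP cells. This was 6.04% of Z genes, against 6.49% of all genes tested. Here too the higher calls were 4.95% of Z genes against 3.88% of all genes, and the lower calls 1.099% against 2.61%. The Z median was 0.26 above the autosomal median and above that of all 27 autosomes. It was 0.16 above with autosomes 1 to 10 alone, 0.16 without HH25 E2 replicate 1 and 0.17 without HH25 DP replicate 3. The number of calls depended on single libraries: it was 0 without HH25 DP replicate 2, without HH25 DP replicate 3 or without HH25 E2 replicate 2, and 28 without HH25 E2 replicate 1, and 171 Z genes had an unadjusted p below 0.05 in the full fit, while DESeq2 called 127.

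DP cells at HH25 against DP cells at HH18 showed a shift of the chromosome similar in size to that against HH25 negative cells, with few calls. The Z median exceeded the autosomal median by 0.32 (1.25-fold) and that of each of the 27 autosomes, and 64.8% of Z genes had a positive log2 fold change, against 54.8% of autosomal genes. At the level of single genes, 3 Z genes were called higher and 1 lower, 0.549% of those tested against 0.947% of all genes (0.382% higher and 0.566% lower), while 132 had an unadjusted p below 0.05 and DESeq2 called 72. Without HH25 DP replicate 2 or replicate 3, 1 call was left, and over the 4 fits that left out 1 library the difference of medians ranged from 0.20 to 0.43. E2 cells at HH25 against HH18 had a Z median 0.17 above the autosomal one and 1 called Z gene, which was higher (0.137% against 0.429% of all genes, 0.273% higher and 0.157% lower). That difference of medians was 0.05 without HH25 E2 replicate 2.

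At HH18 the chromosome lay on the other side. Z genes of HH18 E2 cells had a median 0.19 below that of autosomal genes when set against HH18 negative cells, and those of HH18 DP cells also 0.19 below, and in both comparisons, which share the negative libraries, Z was below all 27 autosomes. The number of called Z genes was small: 0 higher and 6 lower in E2 cells (0.824% against 0.79% of all genes tested, of which 0.0545% higher and 0.736% lower, 63 at an unadjusted p below 0.05, 1 higher and 21 lower by DESeq2), and 0 higher and 2 lower in DP cells (0.275% against 0.463%, of which 0.0954% higher and 0.368% lower, 66 at an unadjusted p below 0.05, 5 higher and 16 lower by DESeq2). The E2 difference was -0.11 without HH18 negative replicate 1 and -0.09 without HH18 negative replicate 2, and 2 calls were left without either E2 library. The DP difference ranged from -0.25 to -0.07 over the fits that left out 1 library. Between HH18 DP and HH18 E2 cells the Z and autosomal medians differed by 0.01, with 2 Z genes called higher and 0 lower (0.275% against 0.368% of all genes, of which 0.273% higher and 0.0954% lower, 63 at an unadjusted p below 0.05, 15 higher and 9 lower by DESeq2, and 0 or 1 called without any 1 library). E2 cells at HH18 against HH10 had 28 Z genes higher and 11 lower (5.36% against 4.84% of all genes, 3.8% higher and 1.04% lower), and a Z median 0.14 below the autosomal one and below all 27 autosomes. Without HH18 E2 replicate 2 that difference was -0.04, and without HH18 E2 replicate 1 there were 21 calls.

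In the remaining 4 comparisons the Z median minus the autosomal median was between -0.06 and 0.01. HH10 E2 cells against HH10 negative cells had 2 Z genes higher and 16 lower (2.47% against 1.66% of all genes, 0.238% higher and 1.42% lower), and the difference of medians was -0.05. Without HH10 E2 replicate 3 it was -0.26, and without either negative library 8 calls were left. HH25 E2 cells against HH25 negative cells had 14 higher and 8 lower (3.02% against 2.88%, 1.84% higher and 1.04% lower) with a difference of 0.01; 3 calls were left without HH25 E2 replicate 1 and 11 without HH25 E2 replicate 2 or HH25 negative replicate 1. Negative cells at HH18 against HH10 had 16 higher and 8 lower (3.30% against 2.44%, 1.96% higher and 0.477% lower) with a difference of 0.00; 8 to 13 calls were left without any 1 library. Negative cells at HH25 against HH18 had 25 higher and 70 lower (13.0% against 14.8%, 5.32% higher and 9.46% lower) with a difference of -0.06, and 35, 37 or 40 calls without HH18 negative replicate 2, HH18 negative replicate 1 or HH25 negative replicate 1.

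**Figure D3:**
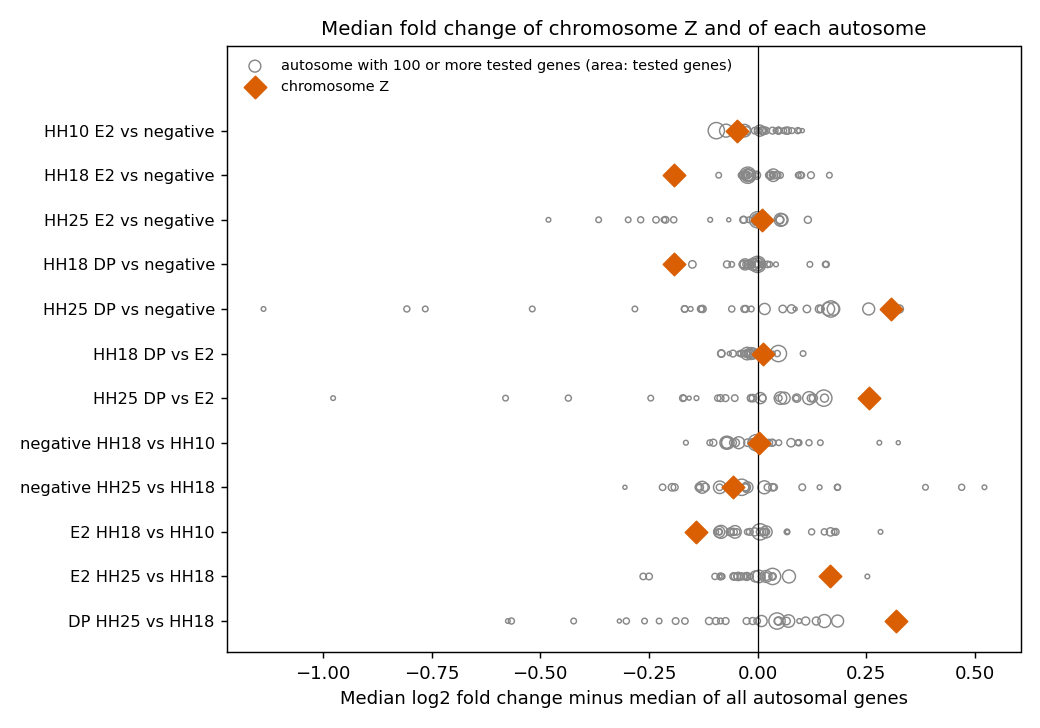
Median log2 fold change of chromosome Z (orange diamonds) and of the 27 autosomes with at least 100 tested genes (grey circles, area by number of tested genes), each minus the median of all autosomal genes, for 12 comparisons. Z lies to the right of every autosome in HH25 DP vs E2 and DP HH25 vs HH18, and to the left of every autosome in HH18 E2 vs negative, HH18 DP vs negative and E2 HH18 vs HH10.

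The shift of HH25 DP cells was spread along the chromosome. Among the 16 bins of 5 Mb with at least 20 tested genes, all 16 had a median above the autosomal median in DP cells at HH25 against HH18, with a range of 0.04 (80 to 85 Mb) to 0.94 (30 to 35 Mb). Of 191 autosomal bins of the same size and minimum, 61.3% were above 0 in that comparison, and of the 148 on autosomes 1 to 10, 73.0%. In HH25 DP against negative cells 15 of 16 Z bins were above, from -0.06 (0 to 5 Mb) to 1.01 (35 to 40 Mb), against 59.7% of autosomal bins and 66.2% of those on autosomes 1 to 10. In HH25 DP against E2 cells 14 of 16 were above, against 58.6% of autosomal bins and 64.2% of those on autosomes 1 to 10. The exceptions there were -0.48 at 60 to 65 Mb and -0.08 at 25 to 30 Mb, and the 60 to 65 Mb bin lies next to the highest one, 1.0999 at 55 to 60 Mb. Of the 16 Z bins, 8 were above in HH25 E2 against negative cells, 7 in negative cells at HH25 against HH18 and 15 in E2 cells at HH25 against HH18. In HH18 E2 against negative cells 2 of 16 Z bins were above, against 45.03% of autosomal bins and 41.9% of those on autosomes 1 to 10. These comparisons share libraries, so their bins are not independent of each other.

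The bins with the most calls in HH25 DP against negative cells were 20 to 25 Mb, with 19 genes higher and 5 lower of 74 tested, 5 to 10 Mb, with 10 higher and 8 lower of 71, and 10 to 15 Mb, with 13 higher and 1 lower of 54. Between 45 and 50 Mb 8 of 30 were higher and 0 lower, and between 25 and 30 Mb 3 of 42 were higher and 0 lower. The 60 to 65 Mb bin had 5 higher and 4 lower of 38, and the 80 to 85 Mb bin 3 higher and 4 lower of 20. Over all genes tested in this comparison, 13.6% were called higher and 9.96% lower. The bins differ in their number of tested genes, so their numbers of calls cannot be compared directly. Whether any bin departs from these shares was not tested.

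Neighbouring genes varied together only slightly more than distant ones. The median correlation of log2 CPM over the 16 libraries was 0.11 between adjacent tested Z genes (727 pairs) and 0.07 between genes 20 places apart. On the autosomes it was 0.11 and 0.03. In all, 4 runs of at least 3 neighbouring genes called in 1 direction in 1 comparison were found on Z, at 3 places. Where many genes are called, runs can arise from placement alone. In HH25 DP against negative cells, 17.7% of Z genes were called higher. The number of runs expected on Z, and that on the autosomes, was not worked out.

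A run of 3 genes between 60313313 and 60466061 was nearly silent in HH10 E2 cells and expressed later. ENSGALG00000014645 (60313313 to 60436293, plus strand, with 12 exon intervals) had 6.70 and 7.13 CPM in HH18 E2 cells, 0.892 and 1.67 CPM in HH10 E2 cells and 10.7 and 15.9 CPM in HH10 negative cells. At HH10 the E2 cells were below the negative cells (log2 fold change -3.34 ± 0.64, edgeR adjusted p = 0.0158). ENSGALG00000044563 (60458998 to 60462704, minus strand) had 27.1 and 18.7 CPM in HH18 E2 cells, no count in either HH10 E2 library and 0.586 and 0.166 CPM in HH10 negative cells. By a floor of 3 counts over the group without counts, its mean in E2 cells was at least 440-fold higher at HH18 than at HH10 (edgeR adjusted p = 0.000352). All folds given as at least use the mean of the 2 libraries with counts, so a single library can lie below them. ENSGALG00000044272 (60464853 to 60466061, plus strand, with 2 exon intervals) had 26.7 and 22.8 CPM in HH18 E2 cells, no count in either HH10 E2 library and 2.48 and 1.66 CPM in HH10 negative cells, and was at least 476-fold higher in E2 cells at HH18 than at HH10 (edgeR adjusted p = 0.000213).

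In all 3 genes every HH10 E2 library lay below every HH10 negative library and below every HH18 E2 library. Summed over the run, HH10 E2 cells had 1.28 ± 0.55 CPM, against 15.7 ± 2.8 CPM in HH10 negative cells (SD, n = 2 each). The calls of ENSGALG00000044272 in both comparisons, and that of ENSGALG00000044563 in E2 HH18 against HH10, were kept without any 1 library. That of ENSGALG00000014645 in E2 HH18 against HH10 was lost without any 1 of the 4 libraries, and that of ENSGALG00000044563 at HH10 (adjusted p = 0.0463) was lost in 3 of 4. ENSGALG00000014645 at HH10 was no longer called without HH10 E2 replicate 1 or HH10 negative replicate 3.

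Both other runs were higher in HH25 DP than in HH25 negative cells. The run from 46726620 to 47271874 comprised ENSGALG00000000247, ENSGALG00000000253 and ENSGALG00000000255, all on the minus strand and adjacent. ENSGALG00000000253 (46823256 to 46837245) had 46.9 and 58.4 CPM in HH25 DP cells, against 2.32 and 6.05 CPM in HH25 negative cells (log2 fold change 3.67 ± 0.69, edgeR adjusted p = 0.00252), and this call was kept without any 1 library. The gene had 63.9 and 93.9 CPM in HH18 negative cells, and its fall in negative cells at HH25 against HH18 was also kept without any 1 library (log2 fold change -4.25 ± 0.71, edgeR adjusted p = 0.00272). ENSGALG00000000247 had 276 and 248 CPM in HH25 DP cells, against 57.4 and 87.8 CPM in HH25 negative cells (log2 fold change 1.85 ± 0.39, edgeR adjusted p = 0.00466), a call lost without HH25 negative replicate 1. For ENSGALG00000000255 the HH25 DP libraries were far apart, at 6.73 and 38.8 CPM, against 2.90 and 1.01 CPM in negative cells (adjusted p = 0.0328, edgeR, lost in 3 of 4 fits that left out 1 library). Summed over the run, HH25 DP cells had 337 ± 12 CPM, against 78.7 ± 22.8 CPM in HH25 negative cells. In mean, ENSGALG00000000247 was higher in HH10 E2 (382), HH10 negative (434) and HH18 negative cells (343 CPM) than in HH25 DP cells (262 CPM). It was lower in HH18 DP, HH18 E2 and HH25 E2 cells.

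The run from 9801318 to 10116869 comprised ENSGALG00000003248, ENSGALG00000017405 and ENSGALG00000003288. ENSGALG00000003248 (9801318 to 9816323, plus strand), an abundant gene in every library, had 664 and 787 CPM in HH25 DP cells, against 286 and 305 CPM in HH25 negative cells (log2 fold change 1.30 ± 0.24, edgeR adjusted p = 0.00246, kept without any 1 library). Its level in HH25 DP cells was close to the 637 and 721 CPM of HH10 E2 cells and the 755 and 770 CPM of HH10 negative cells. ENSGALG00000003288 had 231 and 239 CPM in HH25 DP cells, against 59.5 and 107 CPM in HH25 negative cells (log2 fold change 1.50 ± 0.34, edgeR adjusted p = 0.00649), a call lost without HH25 negative replicate 1, and ENSGALG00000017405 had 69.6 and 108 CPM, against 26.2 and 23.2 CPM (adjusted p = 0.0274, edgeR, lost in 3 of 4 fits that left out 1 library). The run summed to 1050 ± 120 CPM in HH25 DP cells, against 403 ± 44 CPM in HH25 negative cells. In mean, ENSGALG00000003288 was higher in every HH10 and HH18 group (250 to 356 CPM) than in HH25 DP cells (235 CPM). Only the HH25 E2 and HH25 negative cells were below.

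A further group of 3 adjacent genes was picked out after its values were seen, so the order of libraries and the p-values below are no separate support. ENSGALG00000032030 (11920915 to 11948644, plus strand) had 25.03 and 43.9 CPM in HH25 DP cells and 0 to 3.69 CPM in the other 14 libraries. ENSGALG00000003726 (11954663 to 11993224, plus strand) had 166 and 229 CPM in HH25 DP cells and 0 to 23.0 CPM in the others. ENSGALG00000003733 (12007504 to 12048425, minus strand) had 201 and 273 CPM in HH25 DP cells and 6.73 to 105 CPM in the others. In all 3 the HH25 DP libraries were above the other 14, and the share of all genes with this order is not given. Against HH25 negative cells the edgeR adjusted p was 0.0489, 0.0253 and 0.0661 in this order, and against HH25 E2 cells 0.138, 0.0628 and 0.0318. ENSGALG00000003733 also had the log2 CPM most opposite to the W level among the tested Z genes averaging 5 CPM or more (r = -0.76 over 16 libraries, a description in which the HH25 DP libraries weigh on both axes).

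Among the genes named by rule for each comparison, the gene lowest in HH25 DP cells against HH25 negative cells was ENSGALG00000023622 (9164721 to 9165903, plus strand, with 4 exon intervals). It had no count in either HH25 DP library, against 79.6 and 49.7 CPM in HH25 negative cells, at least 1079-fold lower (edgeR adjusted p = 0.000495, kept without any 1 library). In HH25 E2 cells it had 0.0964 and 0.284 CPM, a 345-fold difference from negative cells in the pooled counts (edgeR adjusted p = 0.00565, lost without HH25 E2 replicate 1). At HH18 the DP libraries had 4.69 and 11.8 CPM, the E2 libraries 0.180 and 0.202 CPM and the negative libraries 15.5 and 6.45 CPM. The gene thus had CPM above 4 in negative cells of both later stages and in HH18 DP cells, and below 0.3 in the other 10 libraries. Between HH25 and HH18 DP cells it was at least 138-fold lower at HH25 (edgeR adjusted p = 0.00857), a call lost without either HH25 DP library.

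ENSGALG00000012613, ENSGALG00000027483 and ENSGALG00000045784, which lie far apart on the chromosome, were low in HH18 E2 cells and high in HH18 negative cells. ENSGALG00000012613 (41447669 to 41457345, minus strand) had 4.498 and 5.87 CPM in HH18 E2 cells, against 181 and 355 CPM in HH18 negative cells (log2 fold change -5.69 ± 0.66, edgeR adjusted p = 0.000513, kept without any 1 library). HH18 DP cells had 143 and 154 CPM, higher than E2 cells (log2 fold change 4.84 ± 0.64, edgeR adjusted p = 0.00443, lost without either E2 library). At HH25 the order differed: DP cells had 23.4 and 26.6 CPM, E2 cells 25.8 and 62.2 CPM and negative cells 344 and 311 CPM, and DP cells were below negative cells (log2 fold change -3.71 ± 0.60, edgeR adjusted p = 0.00121, kept without any 1 library). E2 cells at HH25, with 25.8 and 62.2 CPM, were above E2 cells at HH18, with 4.498 and 5.87 CPM (log2 fold change 3.08 ± 0.59, adjusted p = 0.0423, edgeR), the single Z gene called in that comparison, and the call was lost without either HH18 E2 library or HH25 E2 replicate 2. At HH10 all 4 libraries had between 3.91 and 15.0 CPM.

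ENSGALG00000027483 (57343843 to 57352236, plus strand, with 3 exon intervals) was called in 7 of the 12 comparisons, more than any other Z gene. It was at 0 in both HH10 E2 libraries, against 3.24 and 2.94 CPM in HH10 negative cells (at least 59.4-fold lower, edgeR adjusted p = 0.0022, kept without any 1 library). HH18 DP cells had 12.1 and 15.4 CPM, HH18 E2 cells 1.03 and 1.06 CPM and HH18 negative cells 35.0 and 101 CPM. HH25 DP cells had 3.13 and 1.62 CPM, HH25 E2 cells 4.63 and 4.26 CPM and HH25 negative cells 132 and 59.4 CPM. DP cells at HH25 were below negative cells (log2 fold change -5.35 ± 0.76, edgeR adjusted p = 0.00088, kept without any 1 library), and E2 cells were below negative cells at HH18 (-6.01 ± 0.79, edgeR adjusted p = 0.00173) and at HH25 (-4.43 ± 0.73, edgeR adjusted p = 0.00689), the last 2 calls being lost without either E2 library of the stage.

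ENSGALG00000045784 (393715 to 395438, plus strand) had 19.0 and 17.1 CPM in HH18 DP cells, 5.58 and 5.97 CPM in HH18 E2 cells and 145 and 349 CPM in HH18 negative cells. Both sorted populations were below negative cells, E2 cells by a log2 fold change of -5.42 ± 0.76 (edgeR adjusted p = 0.00229, lost without either E2 library) and DP cells by -3.77 ± 0.70 (edgeR adjusted p = 0.0272, lost in 3 of 4 fits that left out 1 library). At HH10 its libraries overlapped, with 17.8 and 32.8 CPM in E2 cells and 21.0 and 43.4 CPM in negative cells.

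ENSGALG00000026884 (7161479 to 7165333, minus strand) had 1.095 and 0.691 CPM in HH25 DP cells and no count in either HH25 E2 library, against 25.6 and 30.3 CPM in HH25 negative cells. E2 cells were at least 178-fold lower than negative cells (edgeR adjusted p = 0.0224, lost without either E2 library). At HH18 it had 39.0 and 19.8 CPM in DP cells, 0.675 and 0 CPM in E2 cells and 11.4 and 11.2 CPM in negative cells.

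Several Z genes were silent or low in HH25 negative cells and higher in HH25 DP cells, and some of them were also expressed in HH25 E2 cells. ENSGALG00000038930 (6157688 to 6255679, plus strand, with 2 exon intervals) had 10.5 and 10.4 CPM in HH25 DP cells and 8.39 and 8.05 CPM in HH25 E2 cells, and no count in either HH25 negative library. DP cells were at least 102-fold higher than negative cells (edgeR adjusted p = 0.00511, kept without any 1 library), and E2 cells at least 80.6-fold higher (edgeR adjusted p = 0.0269, lost without any 1 of the 4 libraries). ENSGALG00000021378 (7564117 to 7574415, plus strand) had 4.22 and 23.9 CPM in HH25 DP cells, 3.86 and 4.92 CPM in HH25 E2 cells and was at 0 in both HH25 negative libraries. The mean of the DP libraries, which lay far apart, was at least 138-fold higher (edgeR adjusted p = 0.00239, kept without any 1 library). The same gene had 18.3 and 13.7 CPM in HH18 negative cells, so negative cells at HH25 were at least 153-fold lower than at HH18 (edgeR adjusted p = 0.00401, kept without any 1 library).

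ENSGALG00000023083 (65959646 to 65980352, minus strand) had 16.2 and 19.9 CPM in HH25 DP cells, 8.87 and 0 CPM in HH25 E2 cells and was at 0 in both HH25 negative libraries. DP cells were at least 177-fold higher than negative cells (adjusted p = 0.0372, edgeR), and the call was lost without any 1 of the 4 libraries. ENSGALG00000012577 (39811829 to 39875128, minus strand) had 35.0 and 49.3 CPM in HH25 DP cells, 4.92 and 3.03 CPM in HH25 E2 cells and 0.527 and 1.01 CPM in HH25 negative cells. All 3 pairs of libraries were apart, which the rule for naming genes required for DP against E2 cells. DP cells were above negative cells (log2 fold change 5.80 ± 0.996, edgeR adjusted p = 0.00155, kept without any 1 library) and above E2 cells (3.41 ± 0.88, adjusted p = 0.0395, edgeR, lost without any 1 of the 4 libraries). HH10 E2 cells, with 30.3 and 21.4 CPM, were the only other group above 10 CPM in mean.

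ENSGALG00000005426 (31717648 to 31775857, minus strand, 37 exon intervals) was at 0 in both HH10 E2 libraries, against 8.92 and 24.6 CPM in HH10 negative cells (at least 322-fold below their mean, edgeR adjusted p = 0.00396, kept without any 1 library). It had 3.28 and 1.67 CPM in HH18 E2 cells and was highest in HH25 DP cells, at 32.2 and 97.6 CPM. In the other direction, ENSGALG00000014999 (25332235 to 25392547, minus strand) was the gene highest in HH10 E2 against HH10 negative cells, with 417 and 397 CPM in E2 cells, against 125 and 112 CPM in negative cells (log2 fold change 1.78 ± 0.39, edgeR adjusted p = 0.033). Its libraries did not overlap, which the rule for naming genes required, and the call was lost without any 1 of the 4.

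Other Z genes were named for differences between stages. ENSGALG00000042626 (3410768 to 3419104, plus strand) was present in all 12 libraries of HH18 and HH25, from 5.83 to 81.5 CPM, and had no count in any of the 4 HH10 libraries. E2 cells at HH18 had 74.3 and 81.5 CPM, at least 1498-fold more than at HH10 (edgeR adjusted p = 0.000393), and negative cells at HH18 had 38.9 and 28.3 CPM, at least 678-fold more (edgeR adjusted p = 0.000682), and both calls were kept without any 1 library. ENSGALG00000034846 (36708004 to 36718708, minus strand) ran the other way, with no count in 10 of the 12 later libraries, against 17.0 and 12.6 CPM in HH10 E2 cells and 130 and 109 CPM in HH10 negative cells. E2 cells at HH18 were at least 198-fold lower than at HH10 (adjusted p = 0.0296, edgeR, and 0.164 by DESeq2), a call lost without either HH18 E2 library.

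ENSGALG00000026790 (26043375 to 26046985, plus strand) was high at HH10, low at HH18 and raised again at HH25. Negative cells had 53.1 and 62.7 CPM at HH10, 1.92 and 0.280 CPM at HH18 and 16.5 and 11.9 CPM at HH25, and DP cells had 35.7 and 31.5 CPM at HH25, against no count at HH18. DP cells at HH25 were at least 336-fold higher than at HH18 (edgeR adjusted p = 0.00269, kept without any 1 library). Negative cells at HH18 were lower than at HH10 (log2 fold change -5.60 ± 1.04, edgeR adjusted p = 0.0104), lost without HH10 negative replicate 3 or HH18 negative replicate 2. ENSGALG00000015332 (52264712 to 52364226, plus strand) was the gene highest in negative cells at HH25 against HH18. It had 5.27 and 23.9 CPM, against 0.547 and 0.280 CPM (log2 fold change 5.06 ± 1.49, adjusted p = 0.0373, edgeR), a call lost in 3 of 4 fits that left out 1 library. This gene was not first raised at HH25, and population separated it too. At HH10 it had 21.3 and 24.5 CPM in negative cells, against 2.51 and 2.49 CPM in E2 cells.

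ENSGALG00000014819 (22350435 to 22404547, minus strand) was the gene lowest in HH25 DP against HH25 E2 cells. It had 0.0782 and 0.0238 CPM in HH25 DP cells, from 2 counts in all, against 8.29 and 4.54 CPM in HH25 E2 cells (edgeR adjusted p = 0.0372, lost without any 1 of the 4 libraries). The pooled counts gave a ratio of 0.0062, with a 95% counting interval of 0.000743 to 0.0228.

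**Figure D4:**
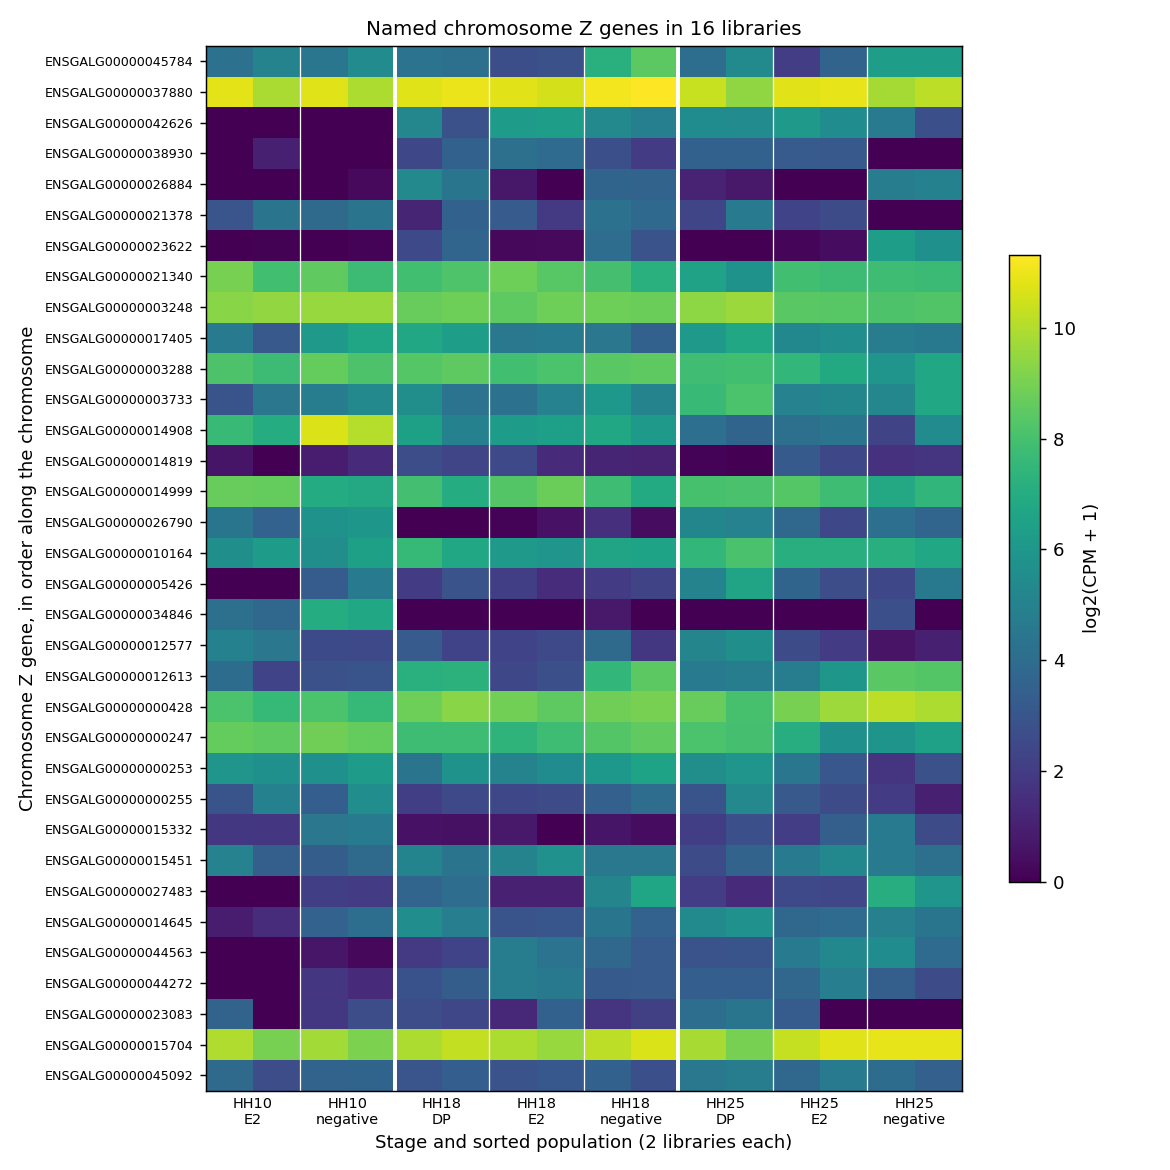
Levels of 34 named chromosome Z genes as log2(CPM + 1) in the 16 libraries, with genes in order along the chromosome and 2 columns per group. ENSGALG00000042626 is above 5 CPM in all 12 libraries of HH18 and HH25 and at 0 in the 4 HH10 libraries, and ENSGALG00000023622 is at 0 in both HH25 DP libraries and at 79.6 and 49.7 CPM in HH25 negative cells.

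The most abundant Z genes per length were expressed in every library. ENSGALG00000015704 (66519578 to 66525077, minus strand) averaged 1459 RPKM over the 16 libraries, ENSGALG00000037880 (2151465 to 2159381, plus strand) 857 RPKM and ENSGALG00000000428 (44899734 to 44903752, plus strand) 837 RPKM. The 5 most counted Z genes held 6.77% to 13.3% of the Z counts of a library. ENSGALG00000000428 and ENSGALG00000015704 were lower in HH25 DP than in HH25 negative cells. ENSGALG00000000428 had 416 and 257 CPM in HH25 DP cells, against 1155 and 978 CPM in negative cells (log2 fold change -1.66 ± 0.36, edgeR adjusted p = 0.00502, lost without HH25 DP replicate 3). ENSGALG00000015704 had 917 and 506 CPM in HH25 DP cells, against 1905 and 1886 CPM in negative cells (-1.41 ± 0.39, edgeR adjusted p = 0.0184, lost without HH25 DP replicate 3 or HH25 negative replicate 1). In each of the 2 genes the DP libraries were below the negative libraries, opposite to the shift of the Z median. ENSGALG00000037880 was not called by edgeR in any of the 12 comparisons.

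The level of each Z gene was also set against the W counts across libraries. In the 495 of the 739 genes averaging 5 CPM or more, the median correlation of log2 CPM with the log2 W level was -0.10, and 66.3% of the correlations were negative, against 50.01% of 9456 autosomal genes. Among these Z genes, 4 correlations were above 0.5 and 28 were below -0.5. The shares of autosomal genes beyond these bounds were not worked out, so the 2 numbers cannot be read as a trait of Z. The genes share the libraries, so these are descriptions. The highest was ENSGALG00000021340 (9226405 to 9236499, minus strand, 13 exon intervals; r = 0.83). It had 91.4 and 53.0 CPM in HH25 DP cells and 144 to 506 CPM in the other 14 libraries, and so was lowest in HH25 DP cells, where the Z level was highest. HH25 DP cells were below HH25 negative cells (log2 fold change -1.58 ± 0.42, edgeR adjusted p = 0.016, lost without HH25 DP replicate 3 or HH25 negative replicate 1) and below HH25 E2 cells (-1.64 ± 0.42, adjusted p = 0.0387, edgeR, lost without any 1 of the 4 libraries). Reads of W copies of a Z gene, where such copies exist, may be counted on either, which could not be examined with these files.

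The next most alike were ENSGALG00000015451 (55489590 to 55547342, plus strand; r = 0.58) and ENSGALG00000014908 (16072649 to 16079246, plus strand; r = 0.57). ENSGALG00000014908 had 108 and 65.6 CPM in negative cells at HH18, against 1699 and 1078 CPM at HH10, and 4.01 to 205 CPM over all 14 libraries other than HH10 negative. Negative cells at HH18 were lower (log2 fold change -4.00 ± 0.81, edgeR adjusted p = 0.0162, lost in 3 of 4 fits that left out 1 library). After ENSGALG00000003733, the most opposite were ENSGALG00000010164 (26328238 to 26435687, plus strand, 37 exon intervals; r = -0.71), with 179 and 272 CPM in HH25 DP cells and 47.7 to 190 CPM in the other 14 libraries, and ENSGALG00000045092 (78821219 to 78829951, minus strand; r = -0.65), with 22.4 and 26.7 CPM in HH25 DP cells and 5.48 to 24.1 CPM in the others. In both, the HH25 DP libraries overlapped the range of the other 14.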

How the data were processed

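RNA of sorted cells had been extracted, amplified with a low-input full-length kit and sequenced as 40 bp read pairs, per the labels' protocols. The authors deposited 1 table of raw read counts per gene for 16 libraries, with exon positions; STAR 2.4.2a, Subread 1.4.5 with featureCounts, DESeq2 and the galGal5 build are named in the submitters' processing notes, with strand and multi-match settings not given in the sources used here. The chromosome Z genes and all rules were chosen with earlier results of these data known. Columns named by stage HH12 were read as the HH10 groups, and 6 columns whose numbers do not match a sample's label were assigned to a group only.

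Counts were tested with edgeR 4.0.16 (R 4.3.3, limma 3.58.1): TMM scaling, filterByExpr at its defaults (14676 genes kept), quasi-likelihood F test, 1 fit of 8 group means over 16 libraries, Benjamini-Hochberg over all genes per comparison, 12 comparisons. SE is the absolute log2 fold change divided by the square root of F. On data simulated for HH25 DP against E2 (14676 genes), the fit recovered 0 of 50 genes changed 2-fold, 12 of 50 at 4-fold, 23 of 50 at 8-fold and 39 of 50 at 16-fold, with 2 false calls.

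A fold against a group at 0 is a lower bound from a floor of 3 counts over the group; intervals and floors cover counting error only. Counts on W are per 1000000 of the library total, unscaled. No pair of libraries was identical. Alternatives were DESeq2 1.42.0, other scaling, other filters, other reference autosomes, a replicate block and leaving out each library; combining 5 CPM with autosomes 1 to 10 was added after the data were seen. Named genes were, per comparison, the highest and the lowest called Z gene whose libraries did not overlap and whose higher group averaged 5 CPM or more, with the 3 most abundant, the 3 most like and the 3 most opposite to W, and every run of at least 3. The reference table matched 0 of the 24881 identifiers, so the listed cell type markers were not looked up and no sequence is shown.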

Additional observations from a re-analysis of the deposited data

Results flagged for a closer look

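The chromosome Z level moved in opposite directions, without overlap of libraries, in the same contrast at different stages or in different populations. The differences of means were -0.084 for HH10 E2 minus HH10 negative cells and -0.23 for HH18 E2 minus HH18 negative cells, against 0.084 for HH25 E2 minus HH25 negative cells. They were -0.16 for HH18 DP minus HH18 negative cells and 0.36 for HH25 DP minus HH25 negative cells. For HH25 minus HH18 they were 0.19 in E2 cells and 0.39 in DP cells, against -0.13 in negative cells. By the other measure, the Z median minus the autosomal median of log2 fold changes, HH25 E2 against negative cells gave 0.0096 (-0.00049 with autosomes 1 to 10) and negative cells at HH25 against HH18 gave -0.056 (0.0036 with autosomes 1 to 10); both were smaller there and turned with autosomes 1 to 10. These differences between contrasts were not tested, each rests on 2 libraries a group, and contrasts of 1 stage share the negative libraries.

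For the named genes listed below, the difference between 2 contrasts was itself called in the edgeR fit (Benjamini-Hochberg over all 14676 genes). Most were named from these same contrasts, so the calls are no separate support. For DP against negative cells, HH25 minus HH18, 2124 of all 14676 genes were called and 107 of the 728 Z genes. The numbers were 118 and 7 for E2 against negative cells, HH18 minus HH10, and 27 and 1 for DP against E2 cells, HH25 minus HH18. Fitted values of genes at 0 in a group depend on the prior count and are no bound. For E2 against negative cells, the log2 fold change at HH18 minus that at HH10 was -5.07 for ENSGALG00000045784, 10.91 for ENSGALG00000005426, -6.25 for ENSGALG00000012613 and 9.90 for ENSGALG00000044272.

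For DP against negative cells, the log2 fold change at HH25 minus that at HH18 was positive for ENSGALG00000038930 (9.90), ENSGALG00000021378 (12.53), ENSGALG00000003248 (1.35), ENSGALG00000003288 (1.57), ENSGALG00000026790 (8.78), ENSGALG00000012577 (6.26), ENSGALG00000000247 (2.47), ENSGALG00000000253 (4.74) and ENSGALG00000000255 (5.20). It was negative for ENSGALG00000023622 (-12.88), ENSGALG00000021340 (-1.997), ENSGALG00000014819 (-7.41), ENSGALG00000012613 (-2.86), ENSGALG00000000428 (-1.81) and ENSGALG00000027483 (-3.05). For DP against E2 cells the same difference between stages was -5.65 for ENSGALG00000012613, whose HH18 DP libraries were above the HH18 E2 libraries.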

How the results depend on the processing

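DESeq2 called 48 Z genes in HH10 E2 vs negative, 22 in HH18 E2 vs negative, 66 in HH25 E2 vs negative, 21 in HH18 DP vs negative, 24 in HH18 DP vs E2, 127 in HH25 DP vs E2, 51 in negative HH18 vs HH10, 171 in negative HH25 vs HH18, 102 in E2 HH18 vs HH10, 11 in E2 HH25 vs HH18 and 72 in DP HH25 vs HH18. Without the filter edgeR called 13 in HH18 E2 vs negative, 6 in HH18 DP vs negative, 2 in E2 HH25 vs HH18 and 13 in DP HH25 vs HH18. Shares over all genes were not worked out under DESeq2 or without the filter, so these numbers cannot be set against them. DESeq2 size factors in place of TMM moved the median of all genes by -0.16 in HH25 DP vs negative and by -0.12 in HH25 DP vs E2, and left every count of called Z genes within 1.5 times.

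The difference of medians between Z and the autosomes moved to 0.10 in HH25 E2 vs negative, 0.44 in HH25 DP vs negative and -0.23 in E2 HH18 vs HH10 with a mean of at least 5 CPM, and to 0.15 in HH25 DP vs negative and 0.16 in HH25 DP vs E2 with autosomes 1 to 10, where it was 0.0036 and so reversed in negative HH25 vs HH18. With both settings, added after the data were seen, HH25 DP vs E2 gave 0.15. The cause was not tested.

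Leaving out each library gave 8 to 23 called Z genes in HH10 E2 vs negative, 2 to 4 in HH18 E2 vs negative, 3 to 32 in HH25 E2 vs negative, 1 to 2 in HH18 DP vs negative, 71 to 162 in HH25 DP vs negative, 0 to 1 in HH18 DP vs E2, 0 to 28 in HH25 DP vs E2, 8 to 13 in negative HH18 vs HH10, 35 to 93 in negative HH25 vs HH18, 21 to 40 in E2 HH18 vs HH10, 0 to 5 in E2 HH25 vs HH18 and 1 to 4 in DP HH25 vs HH18. These fits assume that a lone library varies like the other groups. Shares over all genes are not given for them or for the replicate block below, so a loss of calls cannot be read as a trait of Z. The difference of medians ranged from -0.26 to -0.013, -0.20 to -0.089, 0 to 0.17, 0.14 to 0.41 and 0.16 to 0.31 in HH10 E2, HH18 E2, HH25 E2, HH25 DP vs negative and HH25 DP vs E2 in turn, from -0.074 to 0.035 and -0.15 to 0 in negative HH18 vs HH10 and HH25 vs HH18, and from -0.19 to -0.037 and 0.049 to 0.16 in E2 HH18 vs HH10 and HH25 vs HH18.

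Same-numbered libraries did not deviate together from their group means (10 pairs of groups, correlations -0.13 to 0.12). With 2 libraries a group, each correlation rests on 1 deviation per group. It therefore cannot decide whether libraries of the same number came from the same embryos. A replicate block, fitted where both groups carry matching numbers, gave 1 called Z gene in HH18 DP vs E2, 0 in E2 HH25 vs HH18, and 4, 15, 2 and 72 in HH18 E2 vs negative, HH25 E2 vs negative, HH18 DP vs negative and negative HH25 vs HH18; 2 named calls had an adjusted p of 0.0552 (ENSGALG00000012613, E2 HH25 vs HH18) and 0.0525 (ENSGALG00000015332) under the block. The 5 comparisons of the Z level and Pearson's r with W kept their direction and, by unadjusted p, their side of the threshold under the 82 alternatives that changed a filter, the summary over genes or 1 library. A design with 36 arrangements cannot reach 0.05. With genes averaging 5 CPM or more, r was -0.60 (unadjusted permutation p = 0.0155). The p-values of r under the alternatives were not adjusted over the 4 relations, so the adjusted result may not hold under each. Without both HH25 DP libraries r was -0.24 (permutation p = 0.403), and the rank correlation over all 16 did not pass (rho -0.45, permutation p = 0.0797). The shallowest library, with 4032540 counts, limits low genes in HH18 negative cells.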

Other observations

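The position of chromosome Z against the autosomes differed by level of expression. With the tested genes of Z and of the autosomes divided by mean level at 5.53 and 43.0 CPM, the Z median minus the autosomal median in HH25 DP against HH25 negative cells was 0.00 in the low class (241 Z genes), 0.67 in the middle class (241) and 0.23 in the high class (246). In HH25 DP against HH25 E2 cells it was 0.24, 0.54 and 0.17 in the same order, and in DP cells at HH25 against HH18 0.52, 0.44 and 0.31. In HH18 E2 against HH18 negative cells it was -0.15, -0.30 and -0.15. In HH18 DP against HH18 negative cells it was -0.56, -0.27 and -0.08. Genes at 0 in both groups have a fitted log2 fold change of 0, which can draw the medians of the low class toward 0. Such genes were not counted, and their part in these values was not tested.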
